A study of Mus musculus with 9 samples.

Results

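The genes of neutrophil secondary granules and the S100 alarmins were followed through 9 RNA sequencing libraries of mouse haematopoietic stem and progenitor cells. The members are 10 genes taken by symbol: S100a8, S100a9, Ngp, Camp, Ltf, Lcn2, Retnlg, Mmp8, Mmp9 and Cd177. All 10 were found among the 38215 genes of the deposited table, and all 10 were among the 14944 genes that passed the filter on low counts. The members lie on 5 chromosomes, and no other gene of the table overlaps any of them. Their expected counts were whole numbers in all 9 libraries, so no reads had been divided between a member and another gene.

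Every library came from bone marrow of C57BL/6J mice that carried Jak2V617F, the activating Jak2 mutation of myeloproliferative neoplasms, and that had received tamoxifen. The cells were collected at the terminal time point and sorted for GFP and mCherry together and for the LSK phenotype: no lineage markers, Sca1 and Kit present. The 5 libraries called EV have the genotype Jak2V617F alone, and the 4 called sgZrsr2 have both Jak2V617F and sgZrsr2 in the genotype. Zrsr2 encodes a factor of the minor spliceosome, and the comparison asked what its loss changed in cells with mutant Jak2. The labels spell out neither EV nor sg, and they do not say what GFP and mCherry mark or what drives the recombinase. The libraries are numbered 1 to 5 for EV and 1, 2, 3 and 5 for sgZrsr2 in the titles, read here as mice. Where the labels do not state separate animals, the p-values below measure the spread between these libraries only.

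Neutrophils store proteins in granules that form one after another during maturation. Myeloperoxidase and elastase are packed early, in promyelocytes, whereas lactoferrin, cathelicidin and lipocalin 2 are made later, in myelocytes, under the transcription factor C/EBP epsilon, and gelatinase granules follow. S100a8 and S100a9 form calprotectin, the calcium-binding complex that fills the cytosol of neutrophils and activates Toll-like receptor 4 when it is released. Stem and early progenitor cells make little of these products, so the genes also serve as a check for mature cells carried through a sort.

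Promoter sequences are shown first for the members on which the results turn: Ngp, Camp and Ltf, which varied together, Lcn2 and Mmp8, which did not follow them, and the S100 pair. Each is printed from 5′ to 3′ on the gene's own strand, upstream of the first base that RefSeq or the deposited table gives to the gene, in build GRCm38.p6 from RefSeq. Capitals mark exact matches to a C/EBP motif (TTGCNNAA or its reverse complement TTNNGCAA), a PU.1 motif (GAGGAAG or CTTCCTC) or a TATA box (TATAAA or TTTATA). The stretches are Ngp chr9:110419558-110419749 (plus strand), Camp chr9:109849457-109849706 (minus), Ltf chr9:111019042-111019291 (plus), Lcn2 chr2:32387798-32387989 (minus), Mmp8 chr9:7558179-7558428 (plus), S100a8 chr3:90668821-90669070 (plus) and S100a9 chr3:90695722-90695971 (minus).
Ngp: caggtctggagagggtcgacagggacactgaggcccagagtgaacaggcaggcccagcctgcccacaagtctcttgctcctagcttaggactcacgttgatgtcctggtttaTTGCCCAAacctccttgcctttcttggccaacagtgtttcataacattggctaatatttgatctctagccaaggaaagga
Camp: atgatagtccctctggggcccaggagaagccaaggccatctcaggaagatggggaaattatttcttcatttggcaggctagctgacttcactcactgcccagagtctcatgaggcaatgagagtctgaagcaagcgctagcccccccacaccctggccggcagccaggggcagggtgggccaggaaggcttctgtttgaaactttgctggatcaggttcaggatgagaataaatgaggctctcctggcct
Ltf: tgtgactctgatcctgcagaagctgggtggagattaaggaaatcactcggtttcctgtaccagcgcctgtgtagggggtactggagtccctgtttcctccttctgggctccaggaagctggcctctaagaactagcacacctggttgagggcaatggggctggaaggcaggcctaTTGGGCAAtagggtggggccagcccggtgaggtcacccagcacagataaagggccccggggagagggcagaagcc
Lcn2: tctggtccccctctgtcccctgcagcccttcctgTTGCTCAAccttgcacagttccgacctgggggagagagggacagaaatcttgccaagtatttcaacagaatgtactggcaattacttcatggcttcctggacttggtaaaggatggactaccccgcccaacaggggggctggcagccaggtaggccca
Mmp8: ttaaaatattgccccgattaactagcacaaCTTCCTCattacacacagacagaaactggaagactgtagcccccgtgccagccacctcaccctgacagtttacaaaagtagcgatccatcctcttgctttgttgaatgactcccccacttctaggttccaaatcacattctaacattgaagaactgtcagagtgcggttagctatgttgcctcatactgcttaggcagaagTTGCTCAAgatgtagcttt
S100a8: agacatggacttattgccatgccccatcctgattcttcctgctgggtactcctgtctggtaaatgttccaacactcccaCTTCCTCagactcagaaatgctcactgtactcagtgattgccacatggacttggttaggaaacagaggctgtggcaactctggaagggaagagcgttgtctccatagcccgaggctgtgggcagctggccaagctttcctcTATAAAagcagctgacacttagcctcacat
S100a9: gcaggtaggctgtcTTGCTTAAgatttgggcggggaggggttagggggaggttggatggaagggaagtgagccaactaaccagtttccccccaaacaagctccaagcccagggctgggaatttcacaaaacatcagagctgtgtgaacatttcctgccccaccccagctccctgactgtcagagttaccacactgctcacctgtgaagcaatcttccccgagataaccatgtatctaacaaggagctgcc

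The motif search covered the 300 bases from 250 before to 50 after the RefSeq start, and 9 members had an entry in the promoter table. C/EBP matches were present in 6 promoters, those of Ngp, Ltf, Lcn2, Mmp8, S100a9 and Retnlg; this is the motif of the family to which C/EBP epsilon belongs. Over all 32851 promoters of the table, 10.8% held one. The match lay 138 bases before the RefSeq start in Ngp, 75 in Ltf, 216 in Lcn2, 19 in Mmp8, 236 in S100a9 and 246 in Retnlg, and Ngp held another 11 bases before its start that is not in the printed stretch. Camp, which varied with Ngp and Ltf, held no such letters in this window. A PU.1 match was present in 3 promoters (Lcn2, S100a8 and Mmp8) and in 13.6% of all promoters. The letters of a TATA box were present in 4 (S100a8, S100a9, Cd177 and Mmp8) and in 13.6% of all. They lay 30 bases before the start in S100a8 and 40 in Cd177, but 0 in S100a9 and 3 in Mmp8, at the start site itself. The TATA letters of S100a9 and Mmp8 and the PU.1 match of Lcn2 are not in the printed stretches. No member held the STAT motif TTCNNNGAA, which is its own reverse complement and was found in 8.3% of all promoters. These are matches of letters in a short window, and binding was not measured.

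The libraries held 23238264 to 45585531 expected counts, and 3 counts, taken as the limit that a count of 0 allows, came to 0.0663 to 0.134 CPM (counts scaled to library size with TMM factors). Zrsr2, the targeted gene, lay lower in all 4 sgZrsr2 libraries (31.7 to 44.4 CPM) than in all 5 EV libraries (50.6 to 62.2 CPM; edgeR adjusted p = 0.714). Libraries sgZrsr2 1 and 2 were the most alike pair over 2396 well-counted genes. Their median coefficient of variation was 2.82%, but they differed by more than sampling noise and were kept as separate samples.

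No difference between sgZrsr2 and EV larger than the spread between libraries was found for any of the 10 members, and this spread was wide. By edgeR's quasi-likelihood test with p-values adjusted over all genes tested (Benjamini-Hochberg, threshold 0.05), 0 of the 10 members and 0% of the 14944 genes were called. None of the members had an unadjusted p under 0.05, beside 6.85% of genes (3.87% higher and 2.98% lower with sgZrsr2). By DESeq2's Wald test 0 members and 0.107% of genes passed the adjusted threshold. No member had groups that did not overlap in CPM, against 3.06% of genes. The log2 fold change was positive for 6 members and negative for 4, with a median of 0.12 beside -0.01 over all genes tested, of which 48.5% were above 0. In bulk samples such as these, fewer cells of a type and less RNA per cell cannot be told apart.

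The calprotectin subunits were detected in every library. S100a8 (ENSMUSG00000056054; chromosome 3, 90669071 to 90670034, plus strand) was at 4.92, 3.25, 9.85, 15.2 and 24.7 CPM across EV mice 1 to 5, from 147 to 848 counts. In sgZrsr2 mice 1, 2, 3 and 5 it was at 6.90, 3.28, 34.0 and 4.37 CPM, from 82 to 1398 counts. The library of sgZrsr2 mouse 3 stood above all EV libraries, and the other 3 lay within the EV range. The means were 11.6 ± 8.67 CPM (SD, n = 5) with EV and 12.1 ± 14.7 CPM (SD, n = 4) with sgZrsr2. In edgeR the log2 fold change was 0.07 (SE 0.74, 95% interval -1.57 to 1.72, edgeR adjusted p = 0.982, two-sided exact permutation p = 0.952).

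S100a9 (ENSMUSG00000056071; chromosome 3, 90692632 to 90695721, minus strand), the larger subunit, was at 5.76, 2.23, 13.7, 11.3 and 49.5 CPM across EV mice 1 to 5. With sgZrsr2 it was at 8.95, 2.64, 56.9 and 6.51 CPM. Again 1 library in each group, EV mouse 5 and sgZrsr2 mouse 3, held most of the group's signal, 60.1% and 75.9% of the sum. The fitted difference was a log2 fold change of 0.19 (SE 0.95, 95% interval -1.90 to 2.28, adjusted p = 0.965, exact permutation p = 0.905). The ratio of S100a9 to S100a8 counts ran from 0.687 (95% interval 0.528 to 0.891) in EV mouse 2 to 2.01 (1.85 to 2.18) in EV mouse 5. It was above 1 in 6 libraries and below 1 in EV mice 2 and 4 and sgZrsr2 mouse 2. The intervals cover counting error only, and those of the lowest and highest ratios did not overlap.

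**Figure D1:**
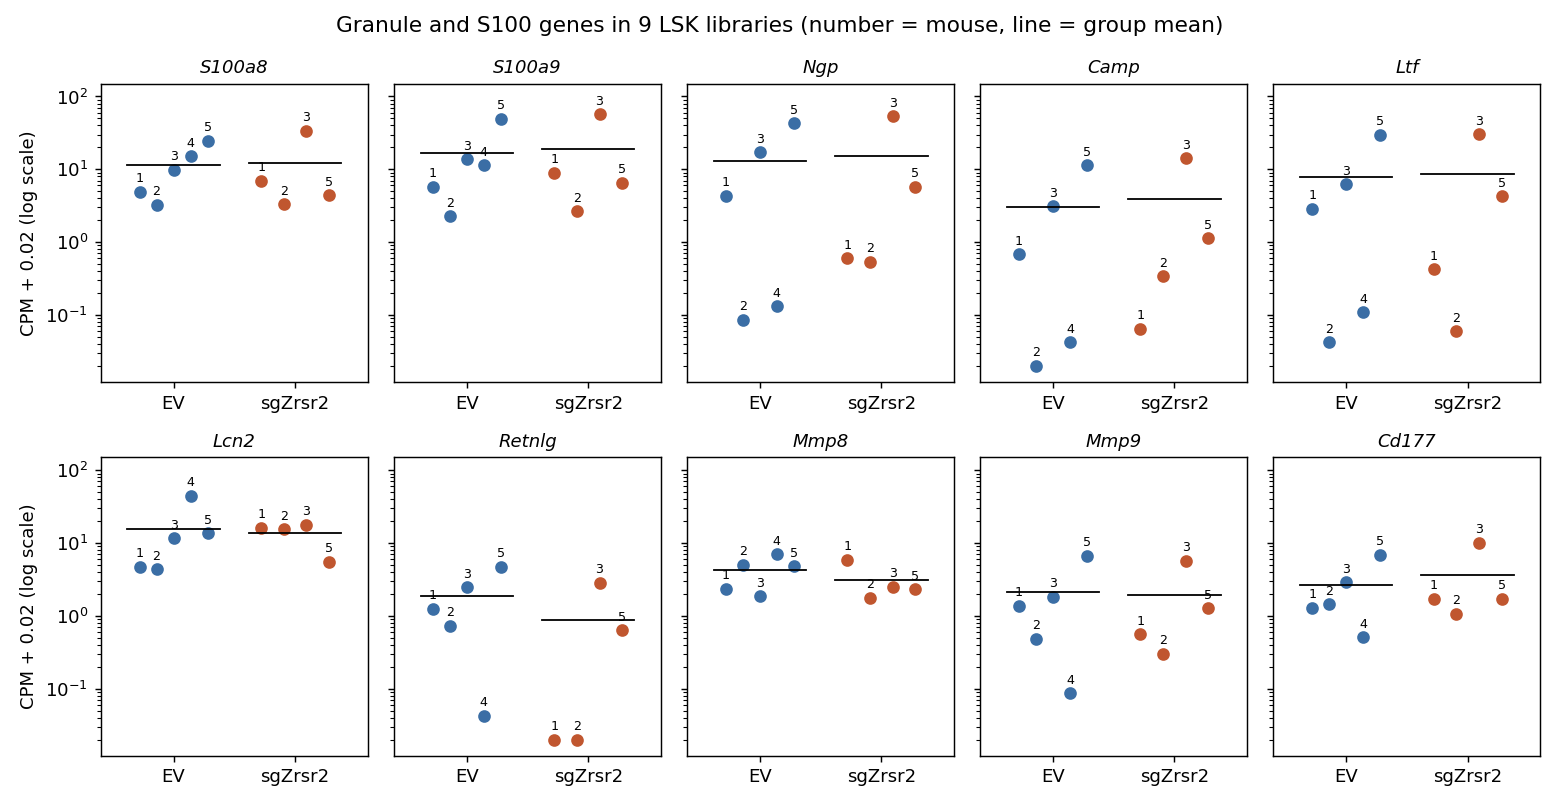
Level of each of the 10 genes in the 9 libraries, as CPM plus 0.02 on a log axis; each point is a library labelled with its mouse number, EV in blue and sgZrsr2 in orange, and each line is the group mean. S100a8 and S100a9 stay at or above 2.23 CPM everywhere, while Ngp, Camp and Ltf drop below 0.6 CPM in EV mice 2 and 4 and sgZrsr2 mice 1 and 2, and Camp and Retnlg include libraries at 0, drawn at 0.02.

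The secondary granule genes Ngp, Camp and Ltf split the libraries in a way that the groups did not, and Lcn2 and Mmp8 did not share this split. Ngp (ENSMUSG00000032484; chromosome 9, 110419750 to 110423010, plus strand) encodes neutrophilic granule protein, a cystatin-related granule component. It was at 4.29, 0.0663, 17.2, 0.111 and 43.0 CPM across EV mice 1 to 5, from 149, 3, 552, 5 and 1480 counts. In sgZrsr2 mice 1, 2, 3 and 5 it was at 0.579, 0.520, 53.2 and 5.70 CPM, from 13, 13, 2188 and 205 counts. Both groups therefore held libraries with 149 or more counts and libraries with 13 or fewer. The mean was 12.9 ± 18.2 CPM (SD, n = 5) with EV and 15.01 ± 25.6 CPM (SD, n = 4) with sgZrsr2, for a log2 fold change of 0.22 (SE 1.57, 95% interval -3.23 to 3.68, adjusted p = 0.976, exact permutation p = 0.889).

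Camp (ENSMUSG00000038357; chromosome 9, 109847375 to 109849456, minus strand), the gene of the antimicrobial peptide cathelicidin, showed the same order of high libraries. It was at 0.662, 0, 3.09, 0.0222 and 11.3 CPM across EV mice 1 to 5 and at 0.0445, 0.320, 14.1 and 1.113 CPM with sgZrsr2. The 0 counts of EV mouse 2 allow a level of up to 0.0663 CPM. The fitted difference was a log2 fold change of 0.38 (SE 1.597, 95% interval -3.14 to 3.91, adjusted p = 0.960, exact permutation p = 0.714). Ltf (ENSMUSG00000032496; chromosome 9, 111019292 to 111042766, plus strand) encodes the iron-binding protein lactoferrin. It was at 2.85, 0.0221, 6.17, 0.0888 and 29.9 CPM across EV mice 1 to 5. With sgZrsr2 it was at 0.401, 0.0400, 30.04 and 4.23 CPM. The log2 fold change of Ltf was 0.17 (SE 1.61, 95% interval -3.39 to 3.72, adjusted p = 0.982, exact permutation p = 0.968). As for Ngp, the 4 lowest libraries of Ltf were EV mice 2 and 4 and sgZrsr2 mice 1 and 2, all with 9 counts or fewer.

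Where Ngp was well counted, the ratios of Camp and Ltf to it could be compared between libraries. In the 5 libraries with more than 100 Ngp counts, the ratio of Camp to Ngp counts was 0.154 to 0.265 and that of Ltf to Ngp 0.359 to 0.741. EV mouse 5 and sgZrsr2 mouse 3, the libraries with the most counts of all 3 genes, had Camp to Ngp ratios of 0.264 (95% interval 0.235 to 0.295) and 0.265 (0.241 to 0.290). Their Ltf to Ngp ratios were 0.694 (0.640 to 0.752) and 0.564 (0.526 to 0.606). EV mouse 3 had the lowest Ltf to Ngp ratio of the 5, at 0.359 (0.303 to 0.423).

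Lcn2 and Mmp8 did not follow Ngp, Camp and Ltf, and they did not vary closely with each other either (Pearson's r of log2 CPM 0.36). Lcn2 (ENSMUSG00000026822; chromosome 2, 32384633 to 32387797, minus strand) encodes lipocalin 2, which binds bacterial siderophores. It was at 4.66, 4.31, 11.6, 44.4 and 13.7 CPM across EV mice 1 to 5 and at 16.2, 15.5, 17.9 and 5.51 CPM across sgZrsr2 mice 1, 2, 3 and 5. EV mouse 4, with 1998 counts of Lcn2 and 5 of Ngp, was the highest library, while 3 of the 4 sgZrsr2 libraries lay between 15.5 and 17.9 CPM, above the other 4 EV libraries. The means were 15.7 ± 16.5 CPM (SD, n = 5) and 13.8 ± 5.60 CPM (SD, n = 4). The log2 fold change was -0.19 (SE 0.64, 95% interval -1.61 to 1.23, adjusted p = 0.947, exact permutation p = 0.984), and without EV mouse 4 it was 0.68 (adjusted p = 0.976).

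Mmp8 (ENSMUSG00000005800; chromosome 9, 7558429 to 7568486, plus strand), neutrophil collagenase, varied least of the 10. It was at 2.33, 5.02, 1.84, 7.04 and 4.799 CPM across EV mice 1 to 5. With sgZrsr2 it was at 5.88, 1.76, 2.51 and 2.28 CPM. The highest and lowest libraries differed 3.999-fold, and the highest were EV mouse 4, sgZrsr2 mouse 1 and EV mouse 2, in all of which Ngp, Camp and Ltf were near 0. In edgeR the log2 fold change was -0.44 (SE 0.47, 95% interval -1.48 to 0.59, adjusted p = 0.815, exact permutation p = 0.492), the narrowest interval among the members. The 2 most alike libraries, sgZrsr2 1 and 2, differed in Mmp8 with counting intervals of 4.92 to 6.97 and 1.28 to 2.36 CPM.

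The remaining 3 genes had few counts. Mmp9 (ENSMUSG00000017737; chromosome 2, 164940780 to 164955850, plus strand), gelatinase B of the tertiary granules, was at 1.353, 0.464, 1.81, 0.0666 and 6.66 CPM across EV mice 1 to 5 and at 0.534, 0.280, 5.67 and 1.25 CPM with sgZrsr2. The same pair of libraries, EV mouse 5 and sgZrsr2 mouse 3, were highest. The fitted difference was a log2 fold change of -0.07 (SE 1.08, 95% interval -2.46 to 2.31, adjusted p = 0.988, exact permutation p = 0.794). Cd177 (ENSMUSG00000052212; chromosome 7, 24743985 to 24760311, minus strand) encodes a GPI-anchored neutrophil surface protein that binds Pecam1. It was at 1.27, 1.41, 2.87, 0.488 and 6.92 CPM with EV and at 1.69, 1.04, 10.1 and 1.70 CPM with sgZrsr2, so 3 of 4 sgZrsr2 libraries lay within the EV range. Its log2 fold change, 0.50, was the highest of the members (SE 0.81, 95% interval -1.30 to 2.29, adjusted p = 0.883, exact permutation p = 0.603).

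Retnlg (ENSMUSG00000022651; chromosome 16, 48872608 to 48874498, plus strand), a resistin-like gene of mature mouse neutrophils, was at 1.24, 0.707, 2.46, 0.0222 and 4.71 CPM across EV mice 1 to 5. It had 0 counts in sgZrsr2 mice 1 and 2, which allows up to 0.134 and 0.120 CPM, and was at 2.85 and 0.612 CPM across sgZrsr2 mice 3 and 5. EV mouse 4, with 1 count, overlapped the libraries at 0 within counting error. The fitted difference was a log2 fold change of -1.03 (SE 1.31, 95% interval -3.91 to 1.86, adjusted p = 0.842, exact permutation p = 0.381), the lowest of the members.

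**Figure D2:**
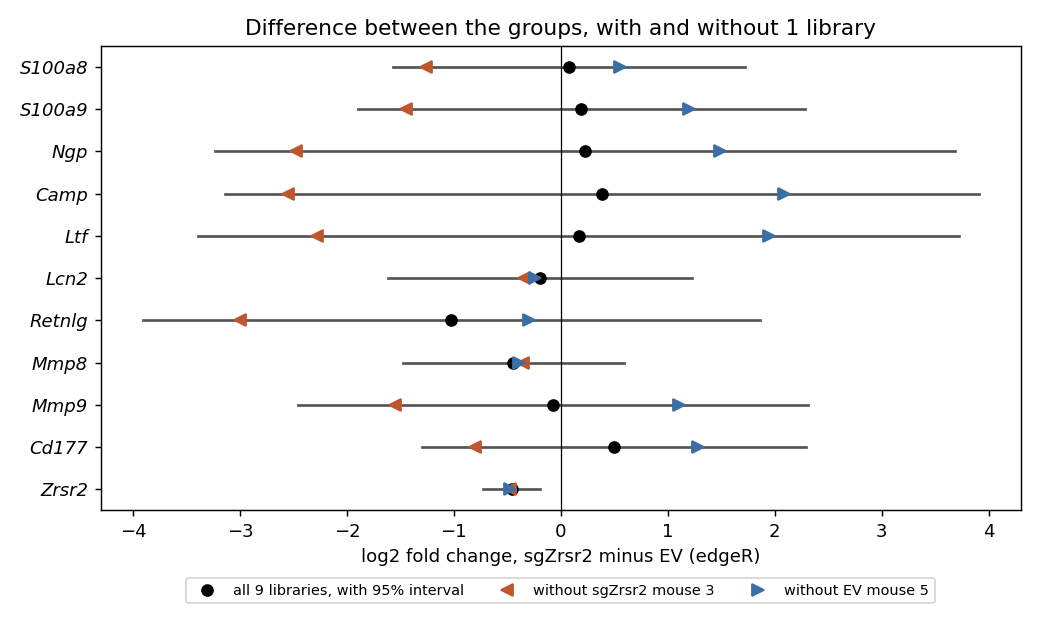
Log2 fold change of each gene, sgZrsr2 minus EV, from edgeR, with Zrsr2 for scale; points with lines are the estimate from all 9 libraries and its 95% interval, and triangles are the estimates without sgZrsr2 mouse 3 or without EV mouse 5. All 10 member intervals include 0, and leaving out sgZrsr2 mouse 3 or EV mouse 5 moves Ngp from 0.22 to -2.48 or 1.49, while Lcn2 and Mmp8 hardly move.

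The direction of most members changed when single libraries were left out, and 2 libraries moved the values most. Without sgZrsr2 mouse 3 the log2 fold change was -1.26 for S100a8, -1.45 for S100a9, -2.48 for Ngp, -2.55 for Camp, -2.28 for Ltf and -0.80 for Cd177, all of which had been positive. For Retnlg it was then -3.00 and for Mmp9 -1.55. Without EV mouse 5 the same genes moved the other way: S100a8 to 0.55, S100a9 to 1.196, Ngp to 1.49, Camp to 2.09, Ltf to 1.95, Cd177 to 1.28, Retnlg to -0.30 and Mmp9 to 1.10. With both libraries left out, S100a8 was at -0.78, S100a9 at -0.45, Ngp at -1.22, Camp at -0.86 and Ltf at -0.51. Other libraries also turned values near 0: S100a8 and S100a9 were negative without EV mouse 1 or 2, Ngp without EV mouse 2 or 4, and Ltf without EV mouse 1, 2 or 4, at -0.16 or nearer to 0. Mmp9 was positive without sgZrsr2 mouse 1, 2 or 5, at 0.27 or less, and Lcn2 was positive without EV mouse 4 (0.68) or sgZrsr2 mouse 5 (0.07). In none of these fits did a member pass an adjusted p of 0.05.

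The summed level of the 10 genes shows the same 2 libraries apart. It was 29.3, 17.5, 70.6, 78.7 and 195 CPM across EV mice 1 to 5 and 41.2, 25.4, 227 and 33.3 CPM across sgZrsr2 mice 1, 2, 3 and 5. EV mouse 5 held 49.9% of the EV sum and sgZrsr2 mouse 3 held 69.5% of the sgZrsr2 sum. The medians were 70.6 CPM with EV and 37.3 CPM with sgZrsr2, although the means were close, at 78.3 and 81.8 CPM. In every library the 10 genes took a small part of the RNA, 0.00177% to 0.0243% of all counts.

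**Figure D3:**
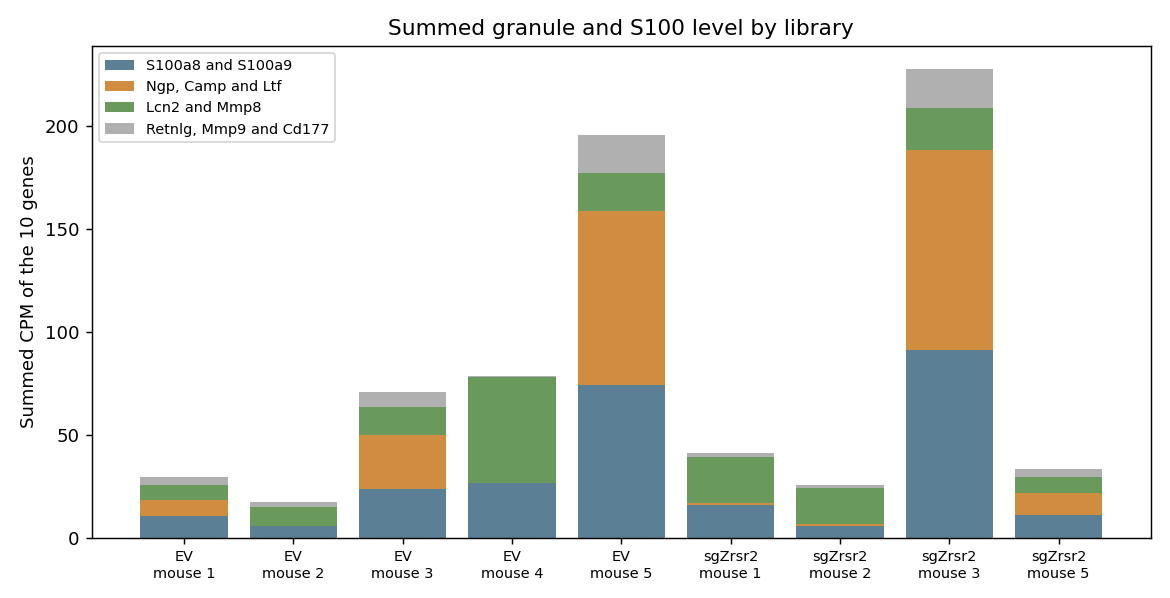
Summed CPM of the 10 genes in each library, stacked by gene group; bars start at 0. EV mouse 5 and sgZrsr2 mouse 3 reach 195 and 227 CPM, and the Ngp, Camp and Ltf part is nearly missing in EV mice 2 and 4 and sgZrsr2 mice 1 and 2, where Lcn2 and Mmp8 take the larger part.

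The make-up of that sum differed between libraries more than its size alone shows. Ngp, Camp and Ltf together made up 26.6%, 37.5%, 43.2%, 42.8% and 33.2% of it in EV mice 1, 3 and 5 and sgZrsr2 mice 3 and 5. In EV mice 2 and 4 and sgZrsr2 mice 1 and 2 they made up 0.506%, 0.282%, 2.48% and 3.46%. Lcn2 and Mmp8 took 53.4%, 65.3%, 53.7% and 68.0% of the sum in those 4 libraries and 8.96% to 23.8% in the other 5. As parts of the same sum, these shares rise where those of Ngp, Camp and Ltf fall. By contrast, the S100 genes held 23.3% to 40.0% throughout. Libraries of both descriptions occurred in both groups.

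The ratio of Lcn2 to Ngp counts restates this split. It was 400 (95% interval 171 to 1232) in EV mouse 4, 65.0 (21.9 to 318) in EV mouse 2, and 28.1 (16.2 to 53.2) and 29.8 (17.2 to 56.6) in sgZrsr2 mice 1 and 2. In EV mice 1, 3 and 5 and sgZrsr2 mice 3 and 5 it was 0.318 to 1.09. The counting intervals of the first 4 libraries did not touch those of the other 5. Ratios of S100a9 to Ngp have the same Ngp counts as divisor and so are no separate observation. They split the libraries the same way, at 5.08 to 102 against 0.793 to 1.34. Total depth did not: EV mice 2 and 4 were the deepest libraries and sgZrsr2 mice 1 and 2 the shallowest.

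**Figure D4:**
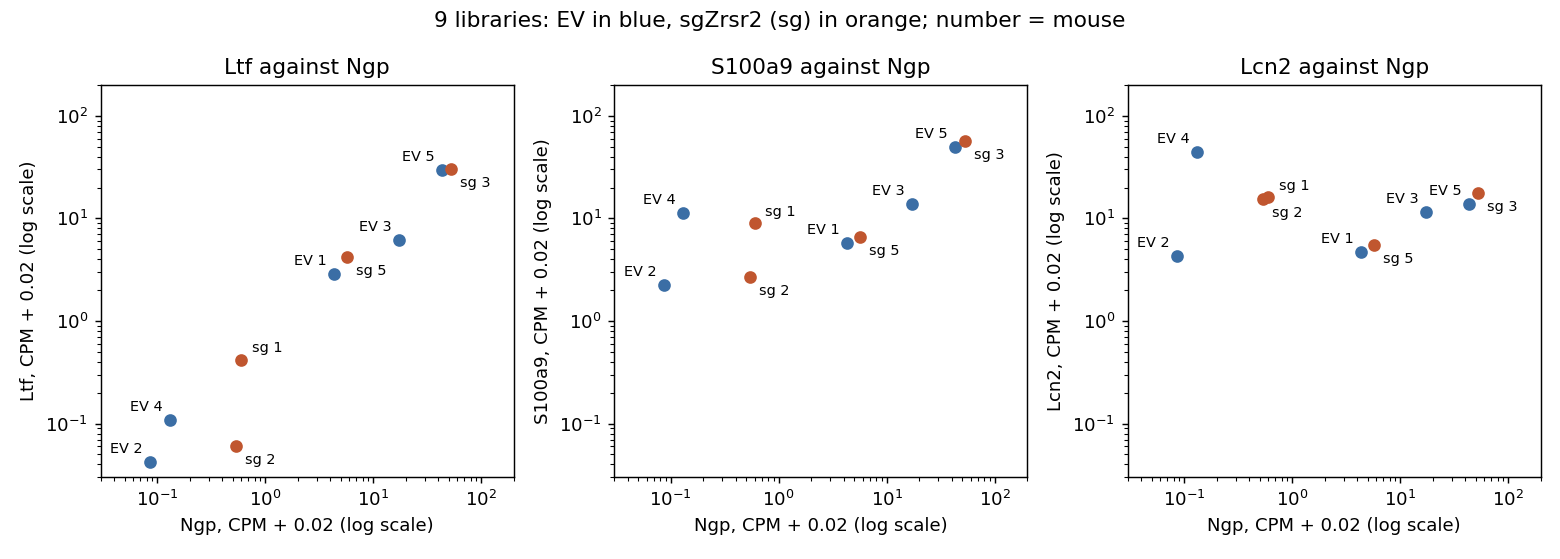
Ltf, S100a9 and Lcn2 plotted against Ngp in the 9 libraries, as CPM plus 0.02 on log axes, EV in blue and sgZrsr2 in orange with mouse numbers. Ltf follows Ngp across the range, S100a9 does so only in part, and Lcn2 is highest in EV mouse 4 (44.4 CPM), where Ngp is at 0.111 CPM.

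Correlations of log2 CPM over the 9 libraries, which share depth and scaling between genes, describe how the members varied together. Pearson's r was 0.98 between Ngp and Camp, 0.98 between Ngp and Ltf and 0.93 between Camp and Ltf. Mmp9 joined them with r of 0.90 to 0.93, Cd177 with 0.84 to 0.86 and Retnlg with 0.78 to 0.81. S100a8 and S100a9 had an r of 0.96 with each other, and S100a9 stood nearer to Ngp (0.77) than S100a8 did (0.61). Lcn2 was at -0.06 with Ngp and 0.60 with S100a8, and Mmp8 at -0.46 with Ngp and 0.36 with Lcn2. These are descriptions over 9 points in which EV mouse 5 and sgZrsr2 mouse 3 are high for most of the genes.

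Per kilobase of merged exons, S100a9 was the most abundant member, at a mean of 33.5 CPM per kb over the 9 libraries, followed by S100a8 at 17.0, Ngp at 11.3, Lcn2 at 5.67 and Camp at 4.50. Ltf was at 2.37, Retnlg at 2.36, Mmp8 at 1.53, Cd177 at 1.08 and Mmp9 at 0.568 CPM per kb. Neighbours in this order were not apart beyond their spread: S100a9 ran from 4.28 to 109 CPM per kb and S100a8 from 4.68 to 49.0. The order by the median library was not that of the means, because Lcn2 (5.22) then stood above Ngp (3.51) and Mmp8 (1.03) above Camp (0.874).

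Few genes varied as much between these libraries as the members did. The SD of log2 CPM over the 9 libraries was 3.40 for Ltf, 3.33 for Ngp, 2.99 for Camp, 2.53 for Retnlg and 1.87 for Mmp9. It was 1.62 for S100a9, 1.32 for Cd177, 1.24 for S100a8, 1.08 for Lcn2 and 0.76 for Mmp8. Among the 13064 genes that averaged 1 CPM or more, the median was 0.29. An SD as large as that of Ltf was seen in 0.291% of these genes, and one as large as that of Mmp8 in 7.39%. The highest library was sgZrsr2 mouse 3 for 6 members, as for 21.0% of all genes tested. It was EV mouse 5 for Retnlg and Mmp9 (5.14% of genes) and EV mouse 4 for Lcn2 and Mmp8 (2092 of the genes tested).

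The genes outside the list whose log2 CPM was most like the mean of the standardized members, over the 9 libraries, were Tmem44 (Pearson's r 0.92), Nbea (0.92), Copz2 (0.88), B3gat2 (0.88), Nr4a2 (0.88), Fhl1 (0.87), Sdc1 (0.87), Myo1d (0.86), Rab11fip1 (0.86) and Dennd5b (0.86). No gene of the granule lists was among them, but the search took only genes that averaged 1 CPM or more. The granule genes Itgb2l, Chil1, Mmp25 and Olfm4, described below, lay under that level and could not appear. Nr4a2 was at 24.1 CPM in EV mouse 4 and at 62.4 and 78.6 CPM in EV mouse 5 and sgZrsr2 mouse 3. Taken alone, Ngp was most like Camp (0.98), Ltf (0.98), Sdc1 (0.93), Mmp9 (0.93) and Aplp2 (0.93). Lcn2 alone was most like Chi3l3 (0.93), the gene of a chitinase-like granule protein also called Chil3, and Cd63 (0.89), a membrane protein of primary granules. These single-gene neighbours were looked up after the values had been seen.

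Chi3l3 in particular followed Lcn2 and not Ngp. It was at 2.33, 3.23, 6.39, 19.8 and 10.2 CPM across EV mice 1 to 5 and at 13.6, 14.4, 18.2 and 4.37 CPM with sgZrsr2. Like Lcn2 it was highest in EV mouse 4, and the sgZrsr2 libraries 1, 2 and 3 lay above 4 of the 5 EV libraries. The log2 fold change was 0.59 (edgeR adjusted p = 0.807). The low-level neutrophil integrin gene Itgb2l, by contrast, was highest in sgZrsr2 mouse 3 (1.68 CPM), followed by EV mouse 5, and was at 0 to 0.468 CPM in the other 7 libraries.

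The summed level of other granule genes varied less between libraries than that of the members, while several genes of low count varied with them. Of a list of 20 further granule and secretory genes, 14 were tested, 0 passed the adjusted threshold and 0 had an unadjusted p under 0.05, with a median log2 fold change of 0.04. Their summed level was 531 to 575 CPM with EV and 545 to 595 CPM with sgZrsr2. Its main part came from Lyz2, lysozyme, at 128 ± 34.9 and 159 ± 19.97 CPM (SD, n = 5 and 4), Hp, haptoglobin, at 72.4 ± 37.3 and 64.0 ± 16.03 CPM, and Anxa1, annexin 1, at 66.8 ± 12.8 and 69.9 ± 20.01 CPM. Hp was highest in EV mouse 4 (136 CPM), as Lcn2 was, and lowest in EV mouse 5 (42.5 CPM) and sgZrsr2 mouse 3 (40.4 CPM), the libraries in which Ngp was highest. Among the 6 genes that did not pass the filter, Chil1, a chitinase-like protein, was at 0.785 and 1.19 CPM in EV mouse 5 and sgZrsr2 mouse 3 and at 0 to 0.223 CPM elsewhere. Mmp25, a membrane-anchored metalloproteinase, was at 0.785 and 1.09 CPM in the same libraries and at 0 to 0.417 CPM elsewhere. Olfm4, a marker of a neutrophil subset, was at 0.487 CPM in sgZrsr2 mouse 3, at 0.0291 CPM in EV mouse 5 and at 0 in the other 7 libraries. Single genes of this list, picked after their values had been seen, were thus high where Ngp was highest (Itgb2l, Chil1 and Mmp25) or with Lcn2 (Chi3l3). Olfm4 was high in sgZrsr2 mouse 3 only. Pglyrp1 and Anxa1 went the other way. Pglyrp1 was at 7.30, 10.1 and 8.42 CPM in EV mice 3 and 5 and sgZrsr2 mouse 3. In EV mice 2 and 4 and sgZrsr2 mice 1 and 2 it was at 12.4 to 17.4 CPM. Anxa1 was at 57.4 and 51.1 CPM in EV mouse 5 and sgZrsr2 mouse 3 and at 88.5 CPM in EV mouse 4. Hp shared its highest library with Lcn2 but was lowest in sgZrsr2 mouse 3, where Lcn2 was at 17.9 CPM.

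The summed level of primary granule genes varied less between libraries than that of the members. All 12 of the list were tested, 0 passed the adjusted threshold, and their sum was 4311 to 4975 CPM with EV and 3913 to 5706 CPM with sgZrsr2. Mpo, myeloperoxidase, alone was at 2053 to 3644 CPM, which came to between 10.1 and 159 times as many counts as the 10 members together had in the same library. Prtn3, proteinase 3, was at 619 ± 110 CPM (SD, n = 5) with EV and 619 ± 112 CPM (SD, n = 4) with sgZrsr2. Srgn, the granule proteoglycan serglycin, was at 499 ± 117 and 548 ± 163 CPM. Elane, neutrophil elastase (198 and 263 CPM, log2 fold change 0.42), and Gstm1 (64.5 and 89.7 CPM, 0.48) had unadjusted p-values of 0.0383 and 0.0164 but an edgeR adjusted p of 0.714. Single genes of the list varied more than the sum. Fcnb, a primary granule lectin at low level, was at 3.98 and 4.96 CPM in EV mouse 5 and sgZrsr2 mouse 3 and at 0.0888 to 1.57 CPM elsewhere. Ms4a3 was highest in EV mouse 4 (149 CPM) and lowest in sgZrsr2 mouse 3 (27.4 CPM) and EV mouse 5 (32.1 CPM).

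Markers of mature neutrophils were mixed. Of 22 listed, 13 were tested, 0 passed, and the median log2 fold change was -0.17. The sum ran from 269 to 422 CPM with EV and from 319 to 335 CPM with sgZrsr2. Of the libraries with high members, EV mouse 5 was at 269 CPM and sgZrsr2 mouse 3 at 335 CPM. This sum came mostly from genes that were well counted in every library. Its largest part was Csf3r, the G-CSF receptor, at 124 ± 27.2 and 147 ± 27.8 CPM, with Padi4, a histone-citrullinating enzyme, at 67.9 ± 5.52 and 66.7 ± 4.86 CPM. Clec4e, a myeloid lectin receptor, was at 38.5 ± 18.3 and 32.8 ± 9.32 CPM. Ly6g, the defining surface marker of mouse neutrophils, had 0 counts in 6 libraries and 0.0291, 0.0243 and 0.0556 CPM in EV mouse 5 and sgZrsr2 mice 3 and 5, all below the limit of a count of 0. Stfa3 and BC100530, stefin genes of mature neutrophils, were at 0 in all 9 libraries, and Stfa1, Stfa2 and Stfa2l1 reached at most 0.204 CPM, in EV mouse 5.

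**Figure D5:**
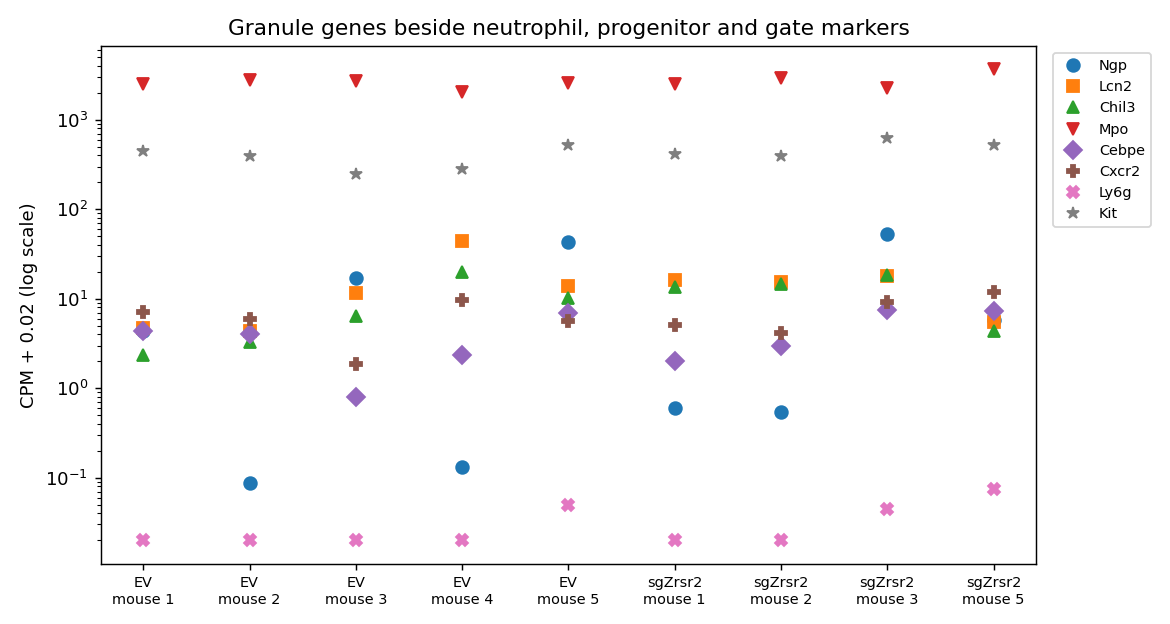
Ngp, Lcn2 and Chil3 (Chi3l3 in the table) beside Mpo, Cebpe, Cxcr2, Ly6g and Kit in each library, as CPM plus 0.02 on a log axis. Mpo stays within 2053 to 3644 CPM and Kit within 247 to 632 CPM while Ngp runs from 0.0663 to 53.2 CPM, and Ly6g is at or below 0.0556 CPM in all 9 libraries.

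The part that carried-over neutrophils or less mature granulocytes have in the member levels was not tested. Among the values that bear on it are those of Ly6g and the stefins, at or near 0, and those of Cxcr2, a chemokine receptor of mature neutrophils. Cxcr2 was at 1.84 to 9.74 CPM with EV and 4.08 to 11.8 CPM with sgZrsr2, and was lowest in EV mouse 3, where Ngp was at 17.2 CPM. Itgam, which encodes the lineage-gate antigen CD11b, was at 17.3 to 48.0 CPM, with its highest value in sgZrsr2 mouse 3 and its lowest in EV mouse 4 and sgZrsr2 mouse 2. Other listed genes went both ways. G0s2 and Fpr1 were highest in EV mouse 5 (0.640 and 0.407 CPM), and neither passed the filter. In EV mice 3 and 5 and sgZrsr2 mice 3 and 5, Il1b was at 1.95 to 2.68 CPM. Elsewhere Il1b was at 0.133 to 0.888 CPM. Trem1 and Clec4d were lowest in sgZrsr2 mouse 3 (7.20 and 3.45 CPM) and EV mouse 5 (8.44 and 3.40 CPM).

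The regulators of granule genes all passed the filter on low counts. All 16 of the list were tested, 0 passed the adjusted threshold, 0 had an unadjusted p under 0.05, and the median log2 fold change was 0.01. Cebpe, the gene of C/EBP epsilon, was at 4.32, 4.04, 0.779, 2.33 and 6.84 CPM across EV mice 1 to 5 and at 2.003, 2.92, 7.49 and 7.21 CPM with sgZrsr2. It was high in EV mouse 5 and sgZrsr2 mouse 3, as Ngp was, but also in sgZrsr2 mouse 5, where Ngp was at 5.70 CPM, and it was lowest in EV mouse 3. The highest CPM in the list were those of Myc (503 ± 145 and 506 ± 62.9 CPM, SD, n = 5 and 4), Irf8, a factor of monocyte fate (465 ± 250 and 374 ± 227 CPM), and Stat3, which signals from the G-CSF receptor (218 ± 74.3 and 263 ± 29.4 CPM).

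Of 17 receptors, partners and inhibitors of the member proteins 14 were tested, and 0 passed the adjusted threshold. Tlr4, the receptor of S100a8 and S100a9, was at 5.93, 4.35, 2.40, 5.82 and 7.30 CPM with EV and at 8.95, 9.68, 9.05 and 7.21 CPM with sgZrsr2. It was the 1 gene of this list with an unadjusted p under 0.05 (log2 fold change 0.76, edgeR adjusted p = 0.714), and its groups overlapped by 1 library on each side. The highest CPM were those of Cap1, a resistin receptor (232 ± 20.6 and 229 ± 27.4 CPM), Bsg, basigin, a receptor described for S100a9 (208 ± 21.0 and 199 ± 22.6 CPM), and Pecam1, the partner of Cd177 (131 ± 21.3 and 135 ± 19.6 CPM). Of 14 other S100 genes 6 were tested, with log2 fold changes between -0.28 and 0.18. S100a10, S100a11 and S100a6 were at 63.9 to 96.3, 67.7 to 85.2 and 18.1 to 30.3 CPM, without the 10.5-fold range of S100a8 or the 25.5-fold range of S100a9.

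The sorted identity and other lineages were read from marker lists, described by counts. Kit was at 247 to 632 CPM, Ly6a, which encodes Sca1, at 14.8 to 49.3 CPM and Cd34 at 544 to 705 CPM. Of 12 genes of stem and progenitor identity, Mecom, Meis1 and Gata2 had an unadjusted p under 0.05 with higher means in sgZrsr2, as did Cpa3 of 7 tested eosinophil, basophil and mast cell genes and Gp1ba of 9 megakaryocyte genes. Ccr2 of 13 monocyte and macrophage genes was lower with sgZrsr2 at this level. None of the 7 lineage-gate, 8 B cell, 5 T and NK cell and 8 erythroid genes tested had an unadjusted p under 0.05. Over all lists outside the members this made 9 of 141 genes tested, or 6.38%, beside 6.85% of all genes tested, and each had an edgeR adjusted p of 0.714. The sums were 643 to 1394 CPM with EV and 785 to 1027 CPM with sgZrsr2 for monocyte and macrophage genes, 40.3 to 121 and 48.3 to 163 CPM for eosinophil, basophil and mast cell genes, 20.3 to 68.5 and 17.2 to 37.2 CPM for B cell genes, 3.91 to 11.7 and 2.32 to 12.4 CPM for T and NK cell genes, and 25.0 to 68.4 and 26.2 to 78.8 CPM for lineage-gate genes.

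The erythroid and megakaryocyte genes Car1 and Vwf were high in the 2 libraries with the highest summed members, and in 1 more. Car1, an erythroid carbonic anhydrase, was at 25.4, 39.3 and 35.5 CPM in EV mouse 5 and sgZrsr2 mice 3 and 5 and at 0 to 0.422 CPM in the other 6 libraries. Vwf, a platelet and stem cell gene, was at 53.2, 91.1 and 85.3 CPM in those 3 and at 4.65 to 11.4 CPM elsewhere. All 8 erythroid and all 9 megakaryocyte genes tested had positive log2 fold changes (medians 1.63 and 1.196), and none passed the adjusted threshold. The sums were 119 to 297 and 216 to 470 CPM for erythroid genes and 127 to 298 and 222 to 481 CPM for megakaryocyte genes, with EV and sgZrsr2. In sgZrsr2 mouse 5 the members were not high with Car1 and Vwf: Ngp was at 5.70 CPM and S100a8 at 4.37 CPM. Other erythroid genes were mixed there. In sgZrsr2 mouse 3, EV mouse 5 and sgZrsr2 mouse 5, Hba-a1, a globin gene, was at 19.4, 4.57 and 2.87 CPM. Slc4a1, which did not pass the filter, was at 9.27, 1.16 and 0.556 CPM in the same order, and Klf1 at 14.3, 8.81 and 12.3 CPM. Prg2, of the eosinophil, basophil and mast cell list, was at 31.0, 10.7 and 10.1 CPM in sgZrsr2 mouse 3, EV mouse 5 and EV mouse 3. It was at 0.0888 to 7.10 CPM elsewhere. Csf1r, of the monocyte and macrophage list, was at 53.2 to 136 CPM with EV and 56.9 to 137 CPM with sgZrsr2. The part of these lineages in the member levels was not tested.

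Without EV mouse 5 and sgZrsr2 mice 3 and 5, the log2 fold changes were -3.29 for Ngp, -2.30 for Camp, -3.37 for Ltf, -0.71 for S100a8, -0.51 for S100a9 and -0.13 for Cd177, and no member passed the threshold. The smallest edgeR adjusted p among the members was 0.374, for Retnlg, the 1 member with an unadjusted p under 0.05 in this fit. Retnlg was then also the 1 member whose groups did not overlap, with 0 counts in both remaining sgZrsr2 libraries, so its fitted log2 fold change of -8.23 depends on the prior count and is no bound. Among the 4 EV libraries left, 2 had Ngp, Camp and Ltf near 0, as both sgZrsr2 libraries did.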

How the data were processed

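RNA of 9 sorted LSK samples (5 EV, 4 sgZrsr2) was measured by sequencing of polyadenylated RNA from 5 ng of total RNA, per the labels' protocols. The authors deposited RSEM expected counts per Ensembl gene, not normalized. Per the submitters' processing notes, cutadapt 1.11, RSEM 1.2.30 and build GRCm38 were used; aligner settings, annotation and strandedness are not given in the sources used here. PCR without molecular identifiers and little input can add variation between libraries.

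From there, counts were rounded, filtered with filterByExpr (minimum count 10, minimum total 15), scaled with TMM and tested with edgeR 4.0.16 (R 4.3.3; estimateDisp, glmQLFit, glmQLFTest; Benjamini-Hochberg over 14944 genes, threshold 0.05). The standard error is the log2 fold change divided by the square root of F. Single levels were compared by two-sided exact permutation over 126 splits, whose smallest p is 0.0159. Correlations used log2 CPM with a prior count of 2, and like genes a mean of at least 1 CPM. Intervals on counts are exact 95% Poisson or binomial intervals of counting error. Exon lengths came from GENCODE M21.

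The members and all gene lists were chosen with earlier results of these data known. Named genes were the members, Zrsr2, defining markers, the 10 most like genes and, of each granule, receptor, regulator and S100 list, the 3 highest and those with an unadjusted p under 0.05. Further granule, neutrophil, erythroid and eosinophil genes were named after their values had been seen. Alternatives were RLE and upper-quartile scaling, other filters, DESeq2 1.42.0, limma-voom (limma 3.58.1) with weights, robust dispersion, a mouse-number block, sgZrsr2 mice 1 and 2 averaged, and left-out libraries; the fit without EV mouse 5 and sgZrsr2 mouse 3 was added after seeing the data. Protein sequences were not used here.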

Additional observations from a re-analysis of the deposited data

Results flagged for a closer look

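In 24 sets of values (each gene or the sum, in each group), the highest and lowest library were compared with the rest of the group, and 13 lay apart by a gap larger than Dixon's 95% critical value. For normally distributed values chance gives about 1 in 20, or 1.2 of 24. The values compared were CPM without a log, which were skewed for most members, so that rate is no measure of chance here. No such comparison was made on a log scale. The sets are also not independent, since the same libraries and correlated genes recur.

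Of these values, 7 came from sgZrsr2 mouse 3. There S100a8 was at 34.0 CPM where the other sgZrsr2 libraries were at 3.28 to 6.90, S100a9 at 56.9 (2.64 to 8.95), Ngp at 53.2 (0.520 to 5.70) and Camp at 14.1 (0.0445 to 1.113). Ltf was at 30.04 CPM (0.0400 to 4.23), Cd177 at 10.1 (1.04 to 1.70) and the sum of the 10 genes at 227 (25.4 to 41.2). EV mouse 5 held 4 of them: S100a9 at 49.5 CPM where the other EV libraries were at 2.23 to 13.7, Camp at 11.3 (0 to 3.09), Ltf at 29.9 (0.0221 to 6.17) and Mmp9 at 6.66 (0.0666 to 1.81). Lcn2 in EV mouse 4, at 44.4 CPM, stood above 4.31 to 13.7 CPM in the other EV libraries. The last was the targeted gene Zrsr2 in EV mouse 3, at 62.2 CPM beside 50.6 to 51.9 CPM.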

How the results depend on the processing

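No member passed an adjusted p of 0.05 in any alternative that was run. Of all genes, 0 were called in the main design, 16 by DESeq2 and 1 with sgZrsr2 mice 1 and 2 averaged, and 0 in the other alternatives. Genes with an unadjusted p under 0.05 numbered 1024, but 609 without EV mouse 4 and 2551 with limma-voom weights. The number of members whose groups did not overlap was 0, and 1 without EV mouse 5 and sgZrsr2 mice 3 and 5. Retnlg, Mmp8 and Zrsr2 stayed below 0 in every alternative, but Retnlg moved from -1.03 to -3.85 with limma-voom weights, to -2.89 with the block and to -8.23, a fitted value against 0 counts, without EV mouse 5 and sgZrsr2 mice 3 and 5. Reversed log2 fold changes, of which the cause was not tested, were: with limma-voom weights Lcn2 at 1.12; with mice 1 and 2 averaged Mmp9 at 0.25; without EV mouse 5 and sgZrsr2 mice 3 and 5 S100a8 at -0.71, S100a9 at -0.51, Ngp at -3.29, Camp at -2.30, Ltf at -3.37 and Cd177 at -0.13; and without EV mouse 5 and sgZrsr2 mouse 3 S100a8 at -0.78, S100a9 at -0.45, Ngp at -1.22, Camp at -0.86, Ltf at -0.51 and Cd177 at -0.024.

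Leaving out 1 library at a time gave -1.26 to 0.55 for S100a8, -1.45 to 1.196 for S100a9, -2.48 to 1.49 for Ngp, -2.55 to 2.09 for Camp and -2.28 to 1.95 for Ltf. It gave -0.43 to 0.68 for Lcn2, -3.00 to -0.30 for Retnlg, -0.95 to -0.18 for Mmp8, -1.55 to 1.10 for Mmp9 and -0.80 to 1.28 for Cd177. The low end came without sgZrsr2 mouse 3 and the high end without EV mouse 5, except for Lcn2 (without EV mice 2 and 4) and Mmp8 (without sgZrsr2 mouse 1 and EV mouse 4).

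With mouse numbers as a replicate block, Ngp was at -0.66, Camp at -0.28, Ltf at -1.16, Lcn2 at 0.79 and Cd177 at -0.047. The block left 341 genes with an unadjusted p under 0.05 and 0 called. The numbers were not used as pairs in the main fit. Deviations of same-numbered libraries correlated at -0.23, -0.09, -0.40 and 0.37 for mice 1, 2, 3 and 5. Of these libraries only sgZrsr2 mouse 5 correlated best with its own number, EV mouse 5. Low counts limit Camp, Ltf, Ngp, Retnlg and Mmp9, whose lowest libraries had 3 counts or fewer.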
